A study of Mus musculus with 8 samples.

Results

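The D-type cyclins, their kinases and the inhibitors of those kinases were examined in lung tumors of mice with and without an sgRNA to *Setd2*. The set held 10 genes of the 48709 in the deposited count table, matched by gene identifier to the symbols of GENCODE release M21. It comprised the cyclins *Ccnd1*, *Ccnd2* and *Ccnd3*, the kinases *Cdk4* and *Cdk6*, the Cip/Kip inhibitors *Cdkn1a* and *Cdkn1b*, and the INK4 inhibitors *Cdkn2a*, *Cdkn2b* and *Cdkn2c*. The set was chosen on the low level of *Ccnd2* in the *Setd2*-targeted tumors of this same experiment, so the differences of its members between the genotypes are a description. Whether the fit across all genes called a member is stated with no p-value, and these calls support nothing. All 10 genes passed the filter on low counts.

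All mice shared the genotype that the labels call *K*, on a mixed B6J/129S4vJae background. Tumors were initiated through the airway with LentiCRISPRv2Cre, a lentivirus that delivers Cre, Cas9 and an sgRNA in one vector. The 4 *K-Ctrl* tumors received an sgRNA to *GFP*, a sequence the mouse genome lacks, and the 4 *K-Setd2KO* tumors an sgRNA to *Setd2*, which encodes the enzyme that trimethylates histone H3 at lysine-36. Both groups therefore shared the *K* genotype, Cre and Cas9, and neither carried an engineered *Trp53* allele. The study states an upper age of the mice at tumor initiation but none per tumor, and which tumors shared a mouse is not given in the sources used here, so p-values measure the spread between these tumors. The labels call the tissue lung adenocarcinoma and the study describes the *K-Setd2KO* tumors as low-grade adenomas. The design text describes flash-frozen tumors, whereas the extraction text refers to cell lines. No sort was described for these tumors, so each library holds tumor cells and host cells together. In such bulk samples, fewer cells of a type and less RNA per cell cannot be told apart.

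D-type cyclins activate CDK4 and CDK6, and the resulting kinases phosphorylate the retinoblastoma protein RB. Phosphorylated RB releases E2F transcription factors, which turn on cyclin E and the genes of DNA synthesis. INK4 proteins bind CDK4 and CDK6 directly and keep cyclin D away, whereas p21 and p27 of the Cip/Kip family bind cyclin-kinase complexes and inhibit CDK2. In lung adenocarcinoma, loss of *CDKN2A* is a frequent event of progression.

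The deposited totals ran from 5806599 counts (*K-Setd2KO* 4) to 21290402 counts (*K-Ctrl* 3). Of 14929 genes tested with edgeR's quasi-likelihood test, 1897 (12.7%) were called at an adjusted p under 0.05, 1155 lower (7.74%) and 742 higher (4.97%) in *K-Setd2KO*. The 2 groups' CPM values, counts scaled to a common library total, did not overlap for 3027 genes (20.3%). *Setd2* itself averaged 140.1 ± 8.81 CPM over the 4 control tumors and 135.7 ± 15.5 CPM over the 4 *Setd2*-targeted tumors (mean ± SD), a log2 fold change of -0.05 that was not called (SE 0.115, edgeR adjusted p = 0.824). Gene-level counts do not show small insertions or deletions at the sgRNA site, so this level does not check the genotype. By *Xist* and Y-linked transcripts, 3 *K-Ctrl* tumors and 1 *K-Setd2KO* tumor came from males, and 1 and 3 from females. Epithelial genes that mark the labelled tumor cells (*Epcam*, *Nkx2-1*, *Sftpc* and 5 others) were present in every tumor, at a summed 30600 to 45620 CPM in *K-Ctrl* against 40120 to 48810 CPM in *K-Setd2KO*.

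Sequence before the start is shown for 4 members, 3 of them (*Ccnd3*, *Cdk6*, *Cdkn1b*) because they were called and *Cdkn2a* because its alternative promoters give p16Ink4a and Arf. The 120 bases that precede the annotated starts in RefSeq (build GRCm38.p6, 5′ to 3′ on the gene's strand) are printed with letters of a GC box (GGGCGG on either strand) or of an E2F site in capitals. The E2F spellings searched on either strand were TTTCCCGC, TTTCGCGC, TTTGCCGC and TTTGGCGC, none of which contains the GC box.
*Ccnd3*, first start, chr17:47504931-47505050, plus strand: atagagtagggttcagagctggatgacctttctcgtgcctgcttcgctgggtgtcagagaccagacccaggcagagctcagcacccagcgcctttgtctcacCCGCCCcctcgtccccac
*Cdk6*, chr5:3343773-3343892, plus strand: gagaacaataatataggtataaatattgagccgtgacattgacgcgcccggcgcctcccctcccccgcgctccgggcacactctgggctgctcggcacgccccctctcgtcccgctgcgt
*Cdkn1b*, chr6:134920281-134920400, plus strand: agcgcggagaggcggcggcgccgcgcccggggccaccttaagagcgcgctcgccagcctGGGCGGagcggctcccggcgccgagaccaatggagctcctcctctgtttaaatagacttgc
*Cdkn2a*, upstream (Arf) start, chr4:89294620-89294739, minus strand: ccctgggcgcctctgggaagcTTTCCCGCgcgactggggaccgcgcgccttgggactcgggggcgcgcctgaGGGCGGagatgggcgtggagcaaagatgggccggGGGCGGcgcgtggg
*Cdkn2a*, downstream (p16Ink4a) start, chr4:89282193-89282312, minus strand: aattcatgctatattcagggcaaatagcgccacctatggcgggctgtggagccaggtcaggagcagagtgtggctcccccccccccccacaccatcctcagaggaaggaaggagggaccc
The stretch before the Arf start held 1 E2F spelling and 2 GC boxes and was 76.7% G and C, whereas the one before the p16Ink4a start held neither and was 60.8% G and C. Over windows of 250 bases before to 50 after a start, 1 of 8 members with an entry (*Cdkn2a*) held an E2F spelling and 7 of 8 held a GC box, against 2.6% and 38.2% of 27025 genes. *Ccnd1* and *Ccnd2* were not among the entries. These matches are letters in a window and not measured binding.

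The level of *Ccnd2*, a cyclin used by many lymphoid and epithelial cells, fell to 0.212 of the control level in the *Setd2*-targeted tumors. *Ccnd2* (ENSMUSG00000000184.12, chr6:127125162-127152193 in the M21 annotation of GRCm38, minus strand) was measured at 179.5, 187.6, 195.3 and 120.1 CPM in *K-Ctrl* 1 to 4 against 43.1, 34.8, 24.7 and 42.3 CPM in *K-Setd2KO* 1 to 4. The 8 tumors fell into separate ranges, and the lowest control tumor, *K-Ctrl* 4, was still above every *K-Setd2KO* tumor. The group means were 170.6 ± 34.3 and 36.2 ± 8.54 CPM (SD, n = 4 each), a log2 fold change of -2.24 (SE 0.219, 95% interval -2.73 to -1.74). This is the value on which the set was chosen. Between 247 and 4231 counts supported each value, and antisense genes that overlap its exons held at most 7 counts in any tumor.

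*Ccnd1*, the cyclin that growth factors induce, was the most abundant D-type cyclin in both groups. *Ccnd1* (chr7:144929931-144939925) reached 263.0, 323.6, 247.4 and 390.5 CPM in *K-Ctrl* against 272.8, 397.2, 367.7 and 474.6 CPM in *K-Setd2KO*. The 2 groups overlapped, and the difference was not called (log2 fold change 0.30, SE 0.204, 95% interval -0.15 to 0.76). The 1100 exon bases it shares with *LTO1* on the opposite strand may hold reads of either gene if strand was not used in counting. *LTO1* was at 183 to 580 counts per tumor where *Ccnd1* was at 2773 to 5358.

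*Ccnd3*, the third D-type cyclin, which is prominent in lymphocytes, was also lower in the *Setd2*-targeted tumors. *Ccnd3* (chr17:47505051-47599691) measured 67.5, 47.9, 63.2 and 72.7 CPM in *K-Ctrl* against 43.5, 44.3, 45.0 and 40.2 CPM in *K-Setd2KO*. The *K-Setd2KO* tumors were nearly alike, and *K-Ctrl* 2 stood only just above them. The gene fell by 0.54 on the log2 scale (SE 0.142, 95% interval -0.86 to -0.22), and it was called, although 11 of 18 alternative fits lost the call. Among those 11 were the fits that left out any tumor other than *K-Ctrl* 2, with log2 fold changes from -0.555 to -0.46, and the fit with a term for sex at -0.38. *Ccnd3* shares 361 exon bases with *Bysl* on the opposite strand, which held 77 to 302 counts per tumor against 235 to 1369 for *Ccnd3*.

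With length taken into account, the make-up of the D-type cyclins differed mainly through *Ccnd2*, the value on which the set was chosen, and is given as a description. TPM values, transcript levels scaled by length and library, were computed from the counts and the deposited gene lengths, so that levels of different genes can be set side by side. *Ccnd1* made up 71.4 ± 6.44% of the summed D-type cyclin TPM in *K-Ctrl* and 89.8 ± 2.66% of it in *K-Setd2KO*. The share of *Ccnd2* was 20.6 ± 5.85% and 4.48 ± 1.61%, and that of *Ccnd3* 8.0 ± 1.58% and 5.73 ± 1.31% (SD, n = 4 each). The *Ccnd2* share ran from 12.3 to 25.8% in *K-Ctrl* and from 3.06 to 6.8% in *K-Setd2KO*, whereas the *Ccnd3* shares overlapped. The sum of the 3 cyclins was 257.5 ± 27.6 TPM and 253.4 ± 61.0 TPM, and these ranges overlapped as well.

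**Figure D1:**
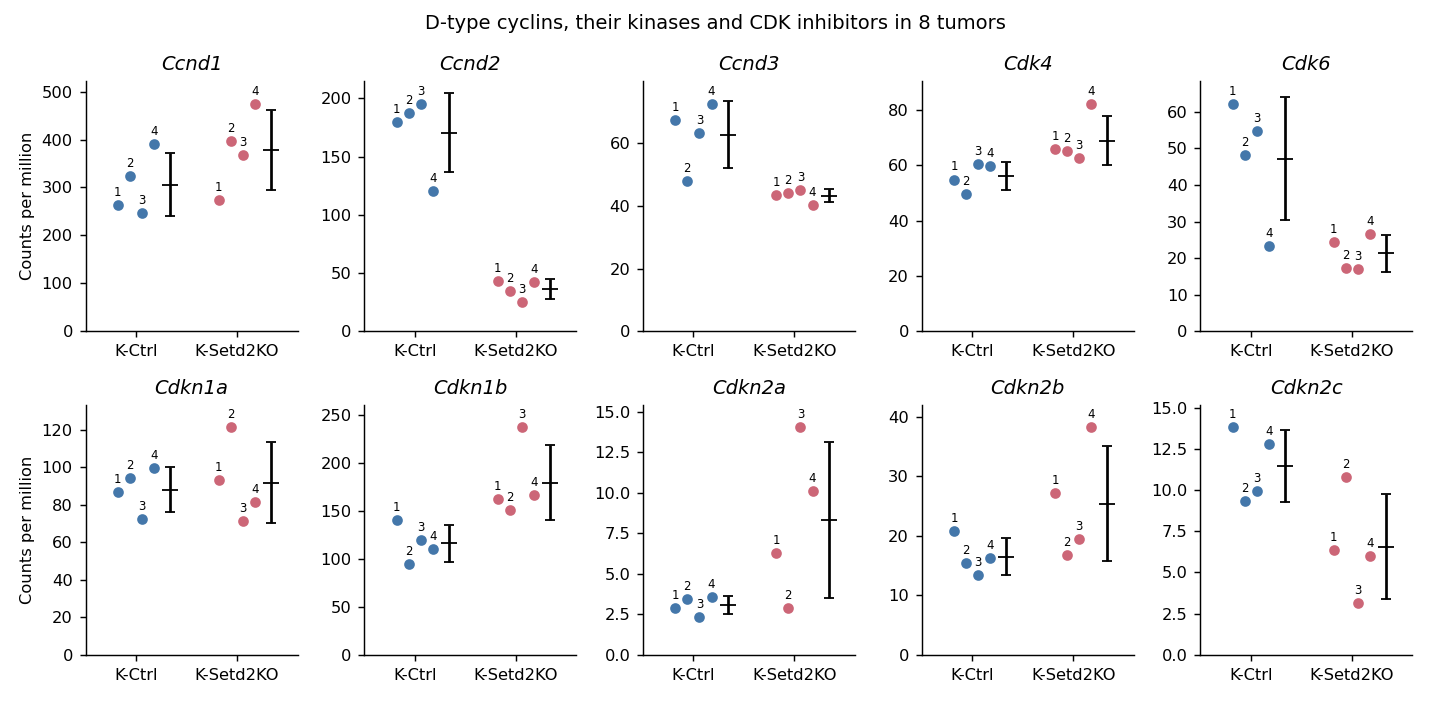
CPM of each of the 10 genes (y axis from 0, one panel a gene) in the 4 K-Ctrl tumors (blue) and 4 K-Setd2KO tumors (red), with tumor numbers above the points and the mean and SD as black bars. The ranges of Ccnd2, Ccnd3, Cdk4 and Cdkn1b did not overlap between the groups.

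Of the kinases that D-type cyclins activate, *Cdk6* was called lower and *Cdk4* was not called. *Cdk6* (chr5:3341485-3531008), which hematopoietic cells depend on, measured 62.2, 48.3, 54.8 and 23.4 CPM in *K-Ctrl* against 24.3, 17.2, 16.9 and 26.7 CPM in *K-Setd2KO*. *K-Ctrl* 4 lay within the range of the *K-Setd2KO* tumors, and the other control tumors lay above it. *Cdk6* was called with a fall of 1.15 on the log2 scale (SE 0.296, 95% interval -1.82 to -0.49). The call was lost in 10 of 18 alternative fits, among them those without any single tumor other than *K-Ctrl* 4 (-1.28 to -0.995 on the log2 scale) and the fit with a term for sex (-1.28).

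*Cdk4* (chr10:127063534-127067920), the partner kinase in most epithelia, measured 54.9, 49.5, 60.5 and 59.9 CPM in *K-Ctrl* against 65.8, 65.3, 62.6 and 82.3 CPM in *K-Setd2KO*. In CPM every *K-Setd2KO* tumor was above every control tumor, whereas in TPM *K-Setd2KO* 2 (50.9) lay below *K-Ctrl* 3 and 4 (53.5 and 51.5). The gene was not called in any fit run (log2 fold change 0.29, SE 0.128, 95% interval 0.01 to 0.58). *Cdk4* shares 604 exon bases with *Tspan31* on the opposite strand, which held 267 to 842 counts per tumor against 481 to 1310 for *Cdk4*. On the TPM scale, *Cdk6* made up 16.3 ± 5.49% of *Cdk4* plus *Cdk6* in *K-Ctrl* and 6.64 ± 1.00% of it in *K-Setd2KO*. The lowest control share, 8.31% in *K-Ctrl* 4, and the highest *K-Setd2KO* share, 7.89%, were close. The sum of both kinases was 59.0 ± 5.10 TPM and 64.8 ± 12.5 TPM.

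*Cdkn1b*, which encodes p27, was the only member called higher. *Cdkn1b* (chr6:134920401-134925513) measured 140.6, 94.9, 119.6 and 110.2 CPM in *K-Ctrl* against 162.3, 151.4, 237.1 and 166.5 CPM in *K-Setd2KO*. The ranges did not overlap, and *K-Setd2KO* 3 was the highest of the 8 tumors. *Cdkn1b* rose by a log2 fold change of 0.62 (SE 0.177, 95% interval 0.23 to 1.02). The call was lost in 10 of 18 alternative fits, including those without any single tumor other than *K-Setd2KO* 2 (0.463 to 0.725 on the log2 scale).

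*Cdkn1a*, the p53 target that encodes p21, showed no called difference. Its values were 86.6, 94.3, 72.2 and 99.5 CPM in *K-Ctrl* against 93.0, 121.2, 71.4 and 81.5 CPM in *K-Setd2KO*. The groups overlapped widely and the gene was not called (log2 fold change 0.06, SE 0.178, 95% interval -0.34 to 0.46). The fold change turned to -0.10 with a term for sex, to -0.03 without *K-Ctrl* 3 and to -0.11 without *K-Setd2KO* 2.

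No INK4 gene was called. *Cdkn2a* (chr4:89274471-89294653) measured 2.89, 3.45, 2.35 and 3.57 CPM in *K-Ctrl* against 6.27, 2.91, 14.0 and 10.1 CPM in *K-Setd2KO*. *K-Setd2KO* 1, 3 and 4 stood above the controls, and *K-Setd2KO* 2 lay among them. The log2 fold change was 1.44 (SE 0.446, 95% interval 0.43 to 2.44), and it was called by DESeq2 (1.43) and without *K-Setd2KO* 2 (1.72). These values rest on 38 to 152 counts per tumor. A count per gene adds the p16Ink4a and Arf transcripts, whose starts are printed above, and cannot separate them.

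The neighbouring *Cdkn2b*, which encodes p15, measured 20.9, 15.5, 13.4 and 16.2 CPM in *K-Ctrl* against 27.2, 16.8, 19.4 and 38.2 CPM in *K-Setd2KO*. The groups overlapped, and the log2 fold change was 0.62 (SE 0.268, 95% interval 0.01 to 1.22). *Cdkn2c*, which encodes p18, went the other way, at 13.8, 9.33, 9.93 and 12.8 CPM in *K-Ctrl* against 6.37, 10.8, 3.14 and 5.99 CPM in *K-Setd2KO*. Only *K-Setd2KO* 2 lay among the controls, with a log2 fold change of -0.80 over all tumors (SE 0.345, 95% interval -1.57 to -0.02) and of -1.15, then called, without that tumor. On the TPM scale, *Cdkn2b* was the largest of the 3 INK4 genes in every tumor, at 59.9 to 66.3% of their sum in *K-Ctrl* and 51.4 to 71.7% of it in *K-Setd2KO*. The share of *Cdkn2c* was 22.8 ± 2.09% and 10.1 ± 7.91%, and that of *Cdkn2a* 14.1 ± 2.63% and 24.9 ± 13.4% (SD, n = 4 each).

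**Figure D2:**
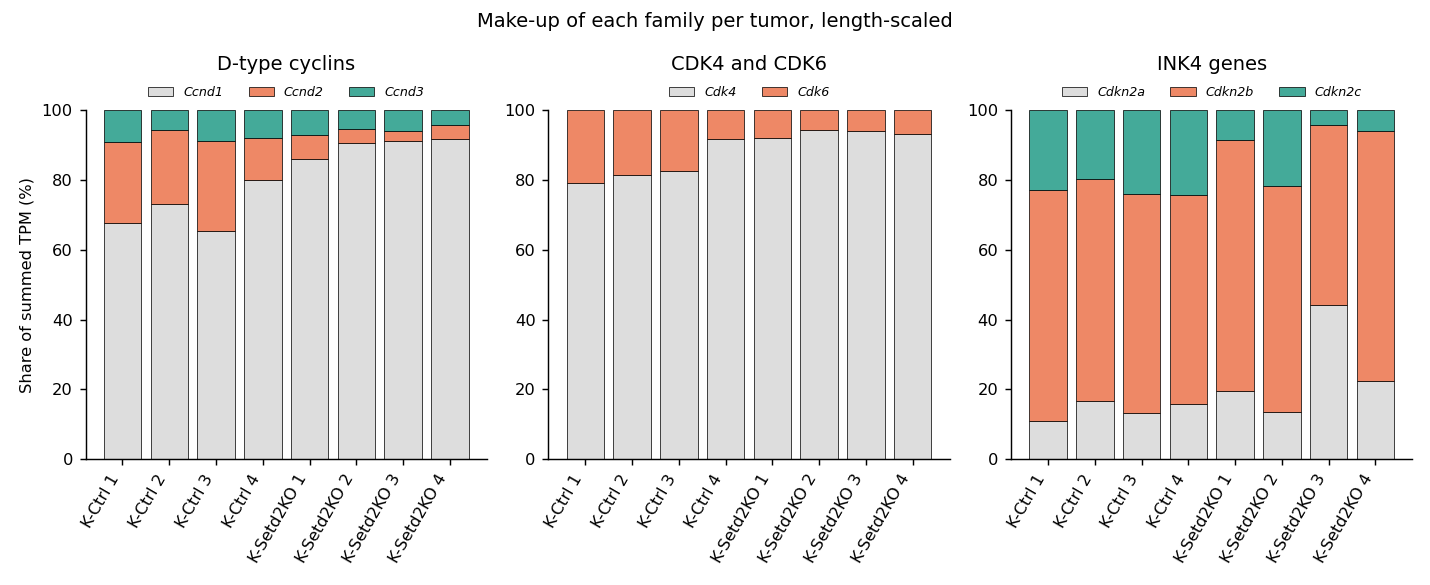
Stacked bars give each gene's share (%) of the summed TPM of its family in each tumor, for the D-type cyclins, the kinases Cdk4 and Cdk6, and the INK4 genes. The Ccnd2 share ran from 12.3 to 25.8% in K-Ctrl and from 3.06 to 6.8% in K-Setd2KO, and K-Ctrl 4 had the smallest Ccnd2 and Cdk6 shares of the controls.

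In all, 4 of the 10 members were called, 3 of them lower (*Ccnd2*, *Ccnd3*, *Cdk6*) and 1 higher (*Cdkn1b*), where 12.7% of all tested genes were called, 7.74% lower and 4.97% higher. The ranges of 4 members did not overlap, against 20.3% of all tested genes. Nothing is read from these counts, since the contrast itself drew up the set. The members' median log2 fold change was 0.18 and that of all tested genes 0.03.

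Ordered by TPM, *Ccnd1* was the highest member in *K-Ctrl* (185.2 ± 36.8 TPM), followed by *Cdkn1a* (113.1 ± 14.2), *Cdkn1b* (73.0 ± 12.6), *Ccnd2* (51.9 ± 10.9) and *Cdk4* (49.4 ± 4.29). *Cdkn2b*, *Ccnd3*, *Cdkn2c*, *Cdk6* and *Cdkn2a* followed at mean levels from 33.8 down to 7.46 TPM. Among neighbours in this order, the ranges of *Cdkn1b* and *Ccnd2*, *Ccnd2* and *Cdk4*, *Cdkn2c* and *Cdk6*, and *Cdk6* and *Cdkn2a* overlapped. In *K-Setd2KO*, *Ccnd1* (228.5 ± 60.2 TPM) and *Cdkn1a* (115.4 ± 17.5 TPM) kept the leading places, *Ccnd2* went from place 4 to place 8 (10.9 ± 2.74 TPM), and *Cdkn2a* from place 10 to place 6 (20.8 ± 12.9 TPM). In that group only *Ccnd1* with *Cdkn1a* and *Cdkn1b* with *Cdk4* were neighbours whose ranges stayed apart.

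*Ccnd2* and *Cdkn1b* both lie on chromosome 6, whose genes as a whole were higher in the *Setd2*-targeted tumors. The median log2 fold change over 839 tested chromosome 6 genes was 0.27, against medians from -0.11 to 0.06 on the other autosomes, with 129 genes called higher and 61 (7.27%) called lower. Relative to the *K-Ctrl* mean, the median chromosome 6 gene stood at 0.33, 0.32 and 0.38 on the log2 scale in *K-Setd2KO* 1, 3 and 4, but at -0.03 in *K-Setd2KO* 2. The control tumors were between -0.03 and 0.02.

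The values of *Ccnd2* are set beside those of its chromosome as a description, since both entered the choice of the set. Its log2 CPM relative to the *K-Ctrl* mean was -1.95, -2.75 and -1.98 in *K-Setd2KO* 1, 3 and 4, and -2.26 in *K-Setd2KO* 2, where the chromosome stood at the control level. Of the 839 chromosome 6 genes, 54 had a lower log2 fold change than *Ccnd2*, a rank that the choice of the set made low. *Cdkn1b* was above the control mean by 0.50, 1.04 and 0.53 in *K-Setd2KO* 1, 3 and 4 and by 0.39 in *K-Setd2KO* 2, and 218 genes of the chromosome had a higher fold change. DNA copy number was not analysed here.

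**Figure D3:**
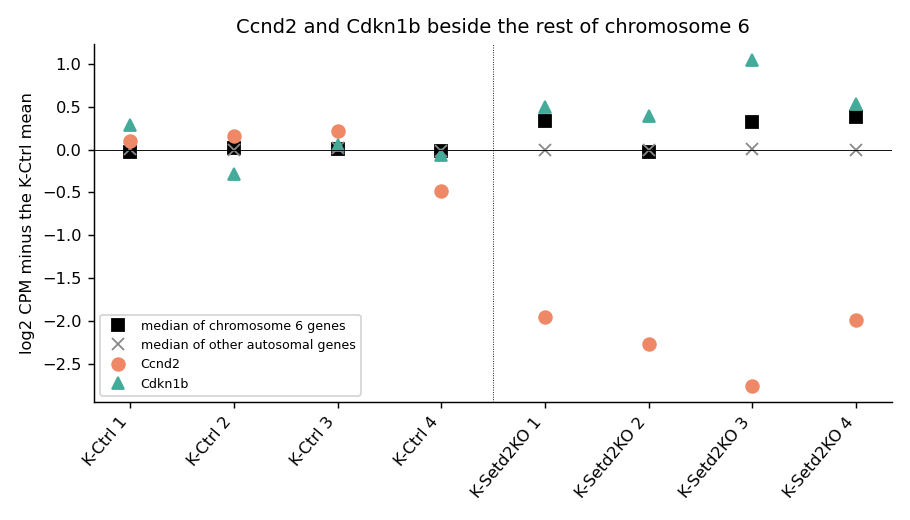
Log2 CPM minus the K-Ctrl mean (y axis) in each tumor for Ccnd2, Cdkn1b, the median chromosome 6 gene and the median of other autosomal genes. The chromosome 6 median is 0.32 to 0.38 in K-Setd2KO 1, 3 and 4 and -0.03 in K-Setd2KO 2, while Ccnd2 lies between -2.75 and -1.95 in all 4.

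Among the 3 nearest tested protein-coding genes on each side of *Ccnd2*, edgeR called none lower. *Tigar*, which encodes a fructose bisphosphatase, lies nearest and had a log2 fold change of -0.37 (SE 0.175, edgeR adjusted p = 0.194), *D6Wsu163e* of -0.40 and *Rad51ap1*, a recombination factor, of -0.95 (SE 0.299, edgeR adjusted p = 0.0673). DESeq2, and edgeR restricted to genes with 10 counts in every tumor, did call *Rad51ap1* lower. On the other side *Cracr2a* was called higher (1.40, SE 0.283, edgeR adjusted p = 0.0167), and *Parp11* (0.59) and *Prmt8* (1.35) were not called. Around *Cdkn1b*, *Dusp16*, a phosphatase of stress kinases (0.81, SE 0.155, edgeR adjusted p = 0.0141), and the RNA helicase gene *Ddx47* (0.98, SE 0.221, edgeR adjusted p = 0.0229) were called higher. *Ddx47* lost the call without *K-Ctrl* 2, *K-Ctrl* 3 or *K-Setd2KO* 3 (0.86 to 0.93). *Crebl2* (0.43), *Gpr19* (0.69), *Apold1* (1.04) and *Gprc5a* (0.23) were not called. Without *K-Setd2KO* 2, *Prmt8* moved to -0.375, *Apold1* to -0.1 and *D6Wsu163e* to -0.145.

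Genes around the D-type cyclin kinases were examined next, using 42 genes that do not belong to the set, among them the RB family, E2F factors and their targets, the CDK-activating kinase, other CDK inhibitors and genes of cyclin D and p27 turnover. All 42 passed the count filter, and 8 (19.0%) were called lower and 0 higher, against 7.74% and 4.97% of all tested genes. DESeq2 called 12 of them in either direction. The median log2 fold change of the 42 was -0.26, with 30 below 0, and that of all tested genes was 0.03, with 47.3% below 0.

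*Rb1*, the retinoblastoma gene, was lower in the *Setd2*-targeted tumors. It measured 65.1, 69.4, 61.6 and 45.3 CPM in *K-Ctrl* against 35.2, 34.9, 33.7 and 30.1 CPM in *K-Setd2KO*, without overlap. It fell by 0.85 on the log2 scale (SE 0.149, edgeR adjusted p = 0.0111), and its relative *Rbl1*, encoding p107, fell by 0.73 (SE 0.204, edgeR adjusted p = 0.0469). *Rbl1* lost the call in 11 of 18 alternative fits, among them those that left out any tumor other than *K-Setd2KO* 4 (-0.82 to -0.58), the fit with a term for sex (-0.79) and the one with scaling factors computed without chromosome 6 (-0.72). The third member of the family, *Rbl2* (p130), was at -0.09 and not called (edgeR adjusted p = 0.763).

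Of 10 E2F and DP factors, 1 was called, *E2f1*, an activator of S phase genes, where 12.7% of all tested genes were called. *E2f1* measured 9.97, 6.47, 10.3 and 8.93 CPM in *K-Ctrl* against 3.39, 2.98, 1.85 and 5.48 CPM in *K-Setd2KO*, and it fell by 1.41 on the log2 scale (SE 0.339, edgeR adjusted p = 0.029). The groups did not overlap, but the call was lost without *K-Ctrl* 1 or 3 or without *K-Setd2KO* 1, 2 or 3 (-1.41 to -1.20) and with a term for sex (-1.53). The median of the 10 factors was -0.08, with 6 below 0.

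Of 5 genes of the cyclin E, cyclin A and CDK2 step, *Ccne1* was called lower. It measured 3.45, 3.70, 3.19 and 4.91 CPM in *K-Ctrl* against 0.976, 0.918, 0.738 and 1.20 CPM in *K-Setd2KO*. The ranges lay far apart, and the gene fell by 1.995 on the log2 scale (SE 0.325, edgeR adjusted p = 0.00876), although these are low levels. The kinase gene *Cdk2*, which cyclin E activates, was at 0.22 and not called (SE 0.156, edgeR adjusted p = 0.384).

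All 13 E2F target genes of the list had a log2 fold change below 0, with a median of -0.62, and 4 were called, where 47.3% of all tested genes were below 0 and 7.74% were called lower. The lists of leukocyte, macrophage and T cell genes had median log2 fold changes of -1.54, -1.70 and -1.50 between the same tumors, and their part in the levels of the targets was not tested. *Pcna*, the sliding clamp of DNA polymerase, measured 94.8, 85.0, 97.5 and 77.0 CPM in *K-Ctrl* against 47.3, 43.9, 53.5 and 40.2 CPM in *K-Setd2KO*. It fell by 0.94 without overlap (SE 0.131, edgeR adjusted p = 0.00643) and kept the call in all 18 alternative fits. *Rrm2*, a subunit of ribonucleotide reductase, fell by 1.25 (SE 0.229, edgeR adjusted p = 0.0124), and it also kept the call in all 18. *Mcm3* fell by 0.77 (SE 0.173, edgeR adjusted p = 0.023) and *Mcm4* by 0.62 (SE 0.143, edgeR adjusted p = 0.0249). Both encode subunits of the replicative helicase. *Mcm3* lost its call without *K-Ctrl* 1, 2 or 3 or *K-Setd2KO* 3 (-0.78 to -0.67), and *Mcm4* without *K-Ctrl* 2, *K-Ctrl* 3 or *K-Setd2KO* 1 (-0.625 to -0.595) and with a term for sex (-0.58). The other 9 targets were not called, and *Mcm7*, at -0.04, turned to 0.08 with a term for sex and to 0.03 without *K-Setd2KO* 1.

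Lists without a called gene were the other CDK inhibitors, the CDK-activating kinase and the genes of D cyclin and p27 turnover. *Cdkn1c*, encoding p57, had a log2 fold change of -0.69 (SE 0.546, edgeR adjusted p = 0.431), which moved to -0.18 without *K-Ctrl* 1 or with a term for sex and to -1.20 without *K-Setd2KO* 3. *Cdk7*, the kinase that activates other CDKs, was at 0.32 (SE 0.127, edgeR adjusted p = 0.129). *Fbxo4*, an F-box gene linked to cyclin D1 degradation, measured 38.1 to 50.8 CPM in *K-Ctrl* against 51.5 to 140.5 CPM in *K-Setd2KO*, with a log2 fold change of 1.00 (SE 0.29, edgeR adjusted p = 0.0534). It was called by DESeq2 (0.99) and without *K-Setd2KO* 4 (1.18). *Skp2* and *Ambra1*, which direct the degradation of p27 and of D-type cyclins, were at -0.20 and 0.07 and not called.

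**Figure D4:**
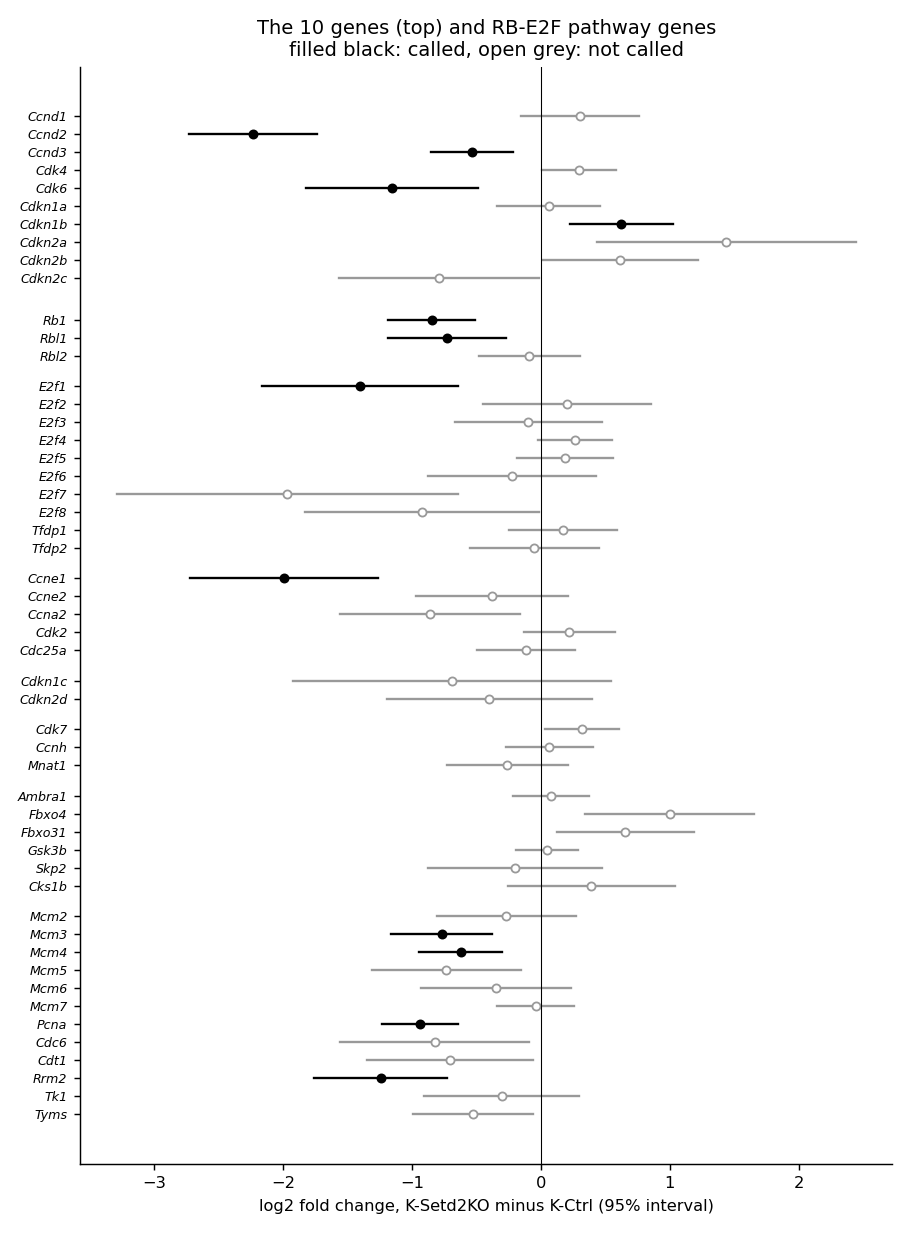
Log2 fold change of K-Setd2KO minus K-Ctrl (x axis, points) with its 95% interval (lines) for the 10 genes at the top and for pathway genes below in their lists. Filled black points were called by edgeR, and the 8 called pathway genes all lie below 0, while Ccnd2 at -2.24 is the lowest of all points.

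Genes of several host cell types were also called lower in the *Setd2*-targeted tumors, beside the lower *Ccnd2*, *Ccnd3* and *Cdk6*. Over all tested genes, 7.74% were called lower and 4.97% higher. Of 6 pan-leukocyte genes, 4 were called lower and 0 higher, and the summed level of all 6 was 970.8 to 1745 CPM in *K-Ctrl* against 517.1 to 745.7 CPM in *K-Setd2KO*. *Lcp1*, which was not called, made up most of that sum, at 527.5 to 909.1 CPM and 349.4 to 600.4 CPM (log2 fold change -0.61). The median log2 fold change of the 6 genes was -1.54. Of 7 macrophage genes, 4 were called lower, at a summed 474.3 to 1447 CPM and 159.9 to 315.3 CPM, and of 6 endothelial genes 2 were called lower, at 434.5 to 1619 CPM and 161.6 to 417.9 CPM. For T cell genes the sums were 39.6 to 93.7 CPM and 7.48 to 30.7 CPM, with 1 of 5 (*Cd2*) called lower and the other 4 overlapping between the groups, and for fibroblast genes 497.1 to 1121 CPM and 141.4 to 583.4 CPM, with 1 of 6. None of the 5 B cell genes was called (11.6 to 54.9 CPM and 13.2 to 22.1 CPM), and no neutrophil, smooth muscle, alveolar type 1 or club cell gene was called. The neutrophil list went the other way, with 4 of 5 genes above 0 and a median log2 fold change of 0.54. Its sums were 15.9 to 20.3 CPM and 13.8 to 56.0 CPM. Of 8 epithelial genes, 3 were called higher.

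*K-Ctrl* 4, the control with the lowest *Ccnd2* and *Cdk6*, also had the lowest leukocyte, macrophage and T cell sums of the controls (970.8, 474.3 and 39.6 CPM). Its fibroblast and smooth muscle sums, however, were the highest of the 8 tumors (1121 and 130.7 CPM). Its endothelial sum (527.9 CPM) was above that of *K-Ctrl* 2 (434.5 CPM). *K-Ctrl* 4 also had the highest *Ccnd3* of the 8 tumors, at 72.7 CPM. Its *Ccnd2* of 120.1 CPM was 2.78 times the highest *K-Setd2KO* value, and its *Cdk6* was 0.876 times. Its leukocyte, macrophage and endothelial sums were 1.3, 1.5 and 1.26 times the highest *K-Setd2KO* sums. *Lcp1* was the largest part of the leukocyte sum, at 553.5 CPM in *K-Ctrl* 4 against up to 600.4 CPM in *K-Setd2KO*. Every other gene of that list was higher in *K-Ctrl* 4 than in any *K-Setd2KO* tumor. These ran from *Ptprc* (144.0 against up to 61.3 CPM) to *Cd52* (17.5 against up to 14.2 CPM). The part of host cells in the levels of *Ccnd2*, *Ccnd3* and *Cdk6*, and in those of the RB and E2F pathway genes, was not tested.

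**Figure D5:**
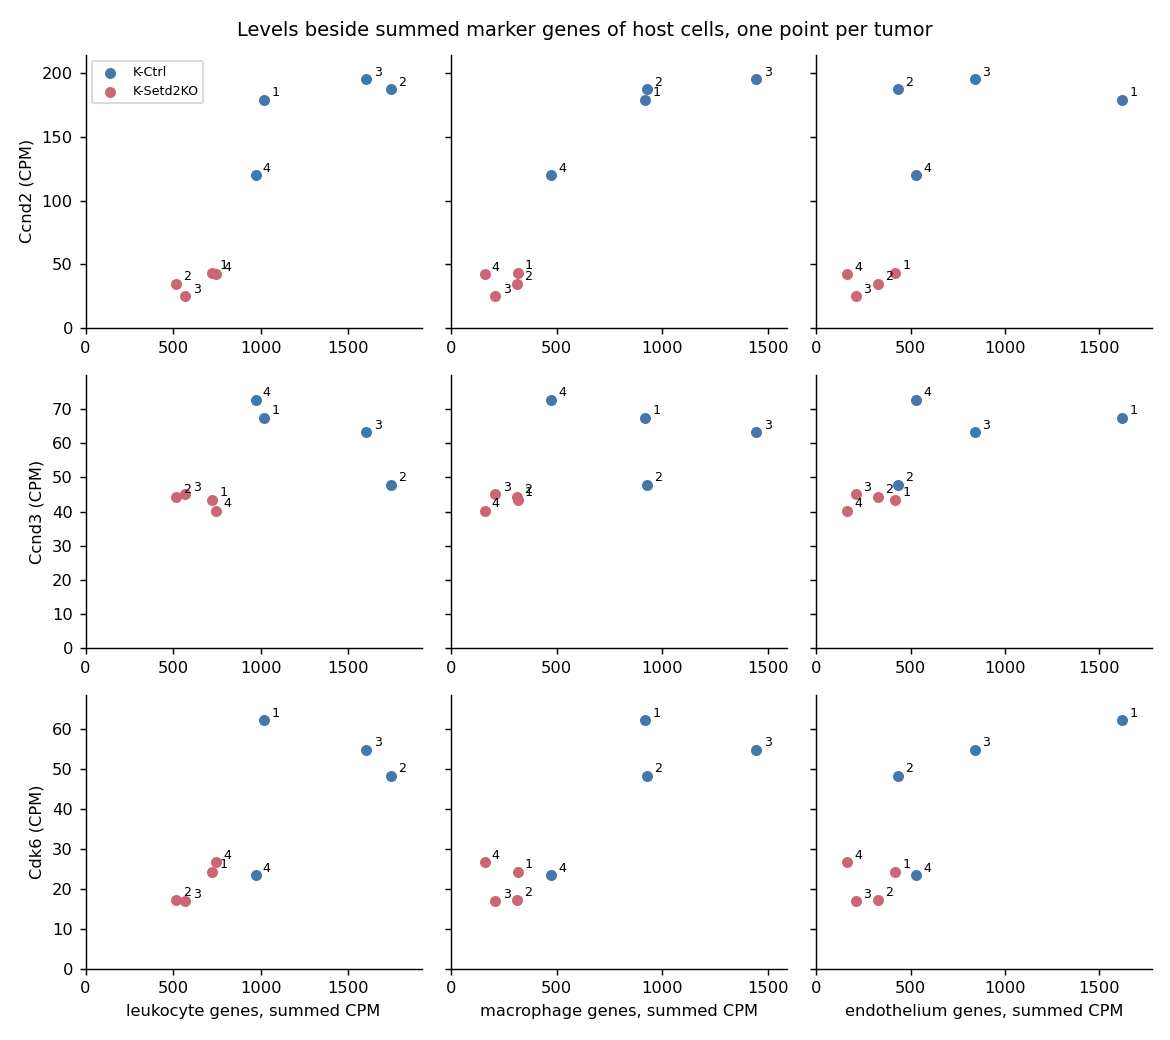
CPM of Ccnd2, Ccnd3 and Cdk6 (rows, y axes from 0) against the summed CPM of leukocyte, macrophage and endothelial genes (columns, x axes from 0), one numbered point per tumor, K-Ctrl blue and K-Setd2KO red. The leukocyte sums are 970.8 to 1745 in K-Ctrl and 517.1 to 745.7 in K-Setd2KO, and K-Ctrl 4 lies nearest the K-Setd2KO tumors in the Ccnd2 row.

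Within sexes the directions were the same for the called members, with 3 control tumors against 1 among males and 1 against 3 among females. The log2 ratio of mean CPM for *Ccnd2* was -2.74 in males and -2.23 in females, for *Cdk6* -1.47 and -1.09, and for *Cdkn1b* 0.94 and 0.75. For *Ccnd3* it was -0.59 in males and -0.17 in females. A sex with 1 tumor in a group allows no test, and in a fit with a term for sex *Ccnd2* and *Cdkn1b* were the members called.

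The genes whose levels followed *Ccnd2* most closely were sought after subtracting each group's mean, so that the difference between the genotypes did not count. Over the 8 tumors the protein-coding genes with the highest Pearson correlation of log2 CPM were *Alg1* (0.984), *Pknox1* (0.982), *Snapc2* (0.979), *Polr3e* (0.976) and *Git2* (0.970). None lies on chromosome 6. These points share libraries and depth, and among so many genes some values of this size are to be found by the choice itself.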

How the data were processed

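Whole-transcriptome libraries (TruSeq Stranded mRNA, paired-end) were measured from 8 tumors, 4 of each genotype. The authors deposited raw read counts per gene for all 8 tumors with a gene length. The submitters' processing notes name STAR 2.5.2b, featureCounts 1.5.0-p1 and the build GRCm38.p4; the annotation release and strand setting are not given in the sources used here. Of 48709 gene identifiers, 99.26% matched GENCODE M21, whose coordinates are printed.

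Counts were analysed with edgeR 4.0.16 in R 4.3.3 (filterByExpr, TMM factors, robust quasi-likelihood fit, genotype alone), with Benjamini-Hochberg adjustment over all tested genes and calls at an adjusted p under 0.05. CPM used TMM-scaled totals, log2 CPM a prior count of 2, and TPM the deposited lengths. The alternatives were DESeq2 1.42.0 (the tool the study used), voom of limma 3.58.1, other scalings and filters, a term for sex, the replicate number as a block, and leaving out each tumor. The statistical scripts were checked on simulated data. No pair of libraries of the same group agreed within counting noise (lowest chi-square per degree of freedom 30.5). Depth sets the floor of 3 counts at 0.141 to 0.517 CPM, which covers counting error only.

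The members and lists were chosen with earlier results of these data known. Named genes were the members, *Setd2*, every called pathway gene (at most 12), the gene with the smallest p of a list with none called, the 3 nearest tested protein-coding genes on each side of *Ccnd2* and *Cdkn1b*, and the 5 genes most correlated with *Ccnd2* within groups; *Cdk2*, *Rbl2*, *Skp2*, *Ambra1* and *Mcm7* were added after their values were seen. Some items are not reported here and are left out of the text and the plot of fold changes.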

Additional observations from a re-analysis of the deposited data

Results flagged for a closer look

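In 2 of 44 groups of 4 tumors examined, 1 tumor lay apart from the other 3 by Dixon's criterion, where 2.2 are to be had by chance. *Cdk4* stood at 82.3 CPM in *K-Setd2KO* 4, the tumor with the lowest total count, against 62.6 to 65.8 CPM in the other *K-Setd2KO* tumors. *Mcm3* stood at 35.3 CPM in *K-Ctrl* 2, against 32.6 to 32.9 CPM in the other controls.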

How the results depend on the processing

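Over 18 alternatives the log2 fold change of *Ccnd2*, the value that chose the set, ran from -2.48 to -2.09, as a description. The count of 1897 genes called became 3194 with DESeq2 and 1237 with a term for sex, and 763 (without *K-Ctrl* 3) to 2058 when single tumors were left out, and it was within 1.5 times in the other 8 alternatives. It was 938 without *K-Ctrl* 1, 1126 without *K-Ctrl* 2 and 1011 without *K-Setd2KO* 3. The 8 pathway genes called became 5 with a term for sex, and 4 (without *K-Ctrl* 3) to 10 with single tumors left out. The 4 members called became 2 with limma voom and with a term for sex, 5 with DESeq2, and 1 to 4 with single tumors left out. *Cdkn1a* reversed to -0.101 with a term for sex, -0.028 without *K-Ctrl* 3 and -0.109 without *K-Setd2KO* 2, and its other values with a tumor left out reached 0.166. Without *K-Setd2KO* 2, *Prmt8* reversed to -0.375 and *Apold1* to -0.1, where leaving out other tumors gave up to 1.73 and 1.386. *Mcm7* reversed to 0.082 with a term for sex and ran from -0.112 to 0.027 with single tumors left out. The causes were not tested. Deviations of same-numbered tumors from their group means correlated at -0.0742, -0.0299, 0.191 and -0.0232. Differently numbered tumors were not compared in this way, so these values cannot decide whether the replicate numbers pair tumors. With the replicate block, 1341 genes, 5 pathway genes and 1 member (*Ccnd2*) were called. *Ccne1*, *Gpr19* and *Apold1* had no value where 10 counts were required in every tumor. Of the members, depth limits *Cdkn2a* and *Cdkn2c* most, which had as few as 38 and 34 counts in a tumor. Over 39 genes, which leave out those named only for their correlation with *Ccnd2*, 623 of 699 alternative values kept direction and side of the threshold, 62 lost a call, 7 gained one and 7 reversed.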

Other observations

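*K-Setd2KO* 3 had the lowest *Ccnd2* (24.7 CPM) and *Cdkn2c* (3.14 CPM) and the highest *Cdkn1b* (237.1 CPM) and *Cdkn2a* (14.0 CPM) of the 8 tumors. *K-Setd2KO* 2, the *Setd2*-targeted tumor whose chromosome 6 genes stood at the control level, had the *Cdkn2a* (2.91 CPM), *Cdkn2b* (16.8 CPM) and *Cdkn2c* (10.8 CPM) values nearest the control means of its group. Its *Ccnd2* (34.8 CPM) and *Pcna* (43.9 CPM) were within the range of the other *K-Setd2KO* tumors.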
